A study of Homo sapiens with 12 samples.

Results

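Amino acid transporters of 7 solute carrier families were followed in a pair of human acute myeloid leukaemia cell lines exposed to a FLT3 inhibitor. The genes were the rows of the count table whose symbol was SLC1A, SLC3A, SLC6A, SLC7A, SLC36A, SLC38A or SLC43A and a number, with a total of at least 100 counts over the 12 libraries. This gave 30 genes out of 58 rows of these families, in a table of 19504 genes. SLC38A4, with a total of 104 counts, lay just inside the minimum, and SLC36A3, with 94, just outside it. All 30 passed the filter on low counts that preceded the tests, but SLC38A4 passed through MV4-11 under AC220, SLC6A13 through MV4-11, SLC6A12 through MV4-11 under DMSO and SLC7A2 through OCI-AML3, the groups where they were high. These genes also reached the minimum total of 100 only through those groups. Fits without the filter therefore do not remove this selection, and their p-values are not free of it.

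The tested cells were MV4-11 cells kept for 24 h in 5 nM AC220, set against MV4-11 cells in DMSO, and OCI-AML3 cells kept for 24 h in 5 nM AC220, set against OCI-AML3 cells in DMSO, with 3 libraries in each of the 4 groups. AC220, or quizartinib, is a small-molecule inhibitor of the receptor tyrosine kinase FLT3, and DMSO is its vehicle. MV4-11 has an internal tandem duplication in FLT3; OCI-AML3 lacks that duplication and is NPM1-mutated. All cells grew in RPMI-1640 with fetal bovine serum, antibiotics and GlutaMAX, a stable glutamine dipeptide, so the medium held amino acids in every group. Each genotype is represented by 1 cell line, so the mutation and the line cannot be told apart.

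Transporters of these families move amino acids across the plasma membrane and the membranes of lysosomes. Heavy chains of the SLC3 family bind light chains of the SLC7 family by a disulphide bridge and bring them to the cell surface, where the pair exchanges 1 amino acid for another. SLC38 and ASC carriers bring in or exchange small neutral amino acids such as glutamine, alanine and serine, and the leucine that SLC7A5 brings in is known to feed the growth kinase complex mTORC1. Many of these genes are known targets of ATF4, the transcription factor of the amino acid response, which binds with C/EBP partners to the C/EBP-ATF response element, and some are known targets of MYC, which binds E-boxes.

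Promoter sequence was taken from RefSeq (GRCh38.p14) for 24 of the 30 genes, each window running from 250 bases before to 50 bases after an annotated start, with 42 windows in all. SLC3A1, SLC43A3, SLC6A12, SLC6A6, SLC7A11 and SLC7A2 were not in the table. Both strands were searched for the letters TGATGNAA, a C/EBP-ATF response element, for CACGTG, an E-box, and for TGACNNNGC, an antioxidant response element, and matches of different motifs were counted separately even where they overlapped. TGATGNAA was found at 6 of the 24 genes (25%) and at 4.46% of all 27305 genes in the table, or in 14.3% of the 42 windows and 3.62% of all 35116, since the transporter genes had more windows per gene. The windows of all 6 genes are shown. Of the 24 genes with a promoter 12 fell in MV4-11 with AC220, 8 rose and 4 were not called. Of the 6 with TGATGNAA in these windows 5 fell and 1 rose. Of the 18 without it there 7 fell, SLC7A5, SLC38A2 and SLC6A9 among them, 7 rose and 4 were not called. A match outside the windows would be missed, and a link of the motif with the response was not tested. Each run has 30 bases on the gene's strand, and the capitals mark the match, which lies on the other strand in SLC1A4 and SLC3A2.
SLC3A2 (chr11:62881719-62881748, plus strand): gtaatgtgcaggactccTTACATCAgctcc
SLC7A1 (chr13:29595663-29595692, minus strand): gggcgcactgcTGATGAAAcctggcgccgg
SLC1A5 (chr19:46784893-46784922, minus strand): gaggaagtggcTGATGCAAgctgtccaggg
SLC1A4 (chr2:64989381-64989410, plus strand): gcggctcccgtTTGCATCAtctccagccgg
SLC38A1 (chr12:46266502-46266531, minus strand): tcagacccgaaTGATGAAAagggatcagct
SLC1A3 (chr5:36596357-36596386, plus strand): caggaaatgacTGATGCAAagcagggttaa
The match began 38 bases after the start in SLC3A2 and 8 after it in SLC7A1. It began before the start in the others, by 97 bases in SLC1A5, 220 in SLC1A3, 7 in SLC1A4 and 4 in SLC38A1, and in SLC1A4 and SLC38A1 it ran across the start. In all but SLC7A1 the match lay at some but not all of the gene's annotated starts. For SLC38A1 the bases after the start were not found near the 5' end of a GENCODE transcript, so its distance rests on RefSeq.

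CACGTG was found at 7 of the 24 genes (29.2%) and at 8.77% of all genes in the table, or in 16.7% and 7.26% of windows. The 7 were SLC1A5, SLC36A1, SLC38A5, SLC38A7, SLC43A1, SLC7A5 and SLC7A7. Windows are shown for SLC36A1, which holds a pair of matches, for SLC43A1, and for SLC7A5, whose level moved most in MV4-11. The capitals mark the E-box.
SLC36A1 (chr5:151447548-151447577, plus strand): cgctcaagggagCACGTGacctcggcctct
SLC36A1, nearer the start (chr5:151447583-151447612, plus strand): gggcggtgggatCACGTGatgaggtccgga
SLC43A1 (chr11:57515797-57515826, minus strand): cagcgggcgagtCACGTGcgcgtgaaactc
SLC7A5, the 250 bases before the start (chr16:87869508-87869757, minus strand): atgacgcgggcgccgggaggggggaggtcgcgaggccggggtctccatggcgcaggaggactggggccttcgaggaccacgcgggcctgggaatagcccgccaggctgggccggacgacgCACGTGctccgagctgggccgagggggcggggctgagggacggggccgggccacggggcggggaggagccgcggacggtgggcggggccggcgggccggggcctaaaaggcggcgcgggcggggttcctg
In SLC7A5 the E-box lay 130 bases before the start. The bases after that start were not found near the 5' end of a GENCODE transcript, so the distance rests on RefSeq. In SLC36A1 and SLC43A1 the matches lay at some but not all of the annotated starts. TGACNNNGC was found at 7 of the 24 genes (29.2%) and at 16.1% of all genes, or in 16.7% and 13.3% of windows. A match is a description of the letters and was not tested as a binding site.

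RNA was read at the 3' ends of transcripts, so a count did not grow with the length of the gene, and levels are given as CPM, each count as a share of its library's total, scaled by TMM (trimmed mean of M values) factors. CPM are relative to all other transcripts of a library, and in bulk RNA fewer expressing cells and less RNA per cell cannot be told apart. Library totals ran from 10877198 to 16918761 counts over the 12 libraries. A floor of 3 counts came to 0.177 to 0.276 CPM in a library. MV4-11 AC220 replicate 1 differed most from the other libraries of its group. All 8 of the fixed myeloid markers had counts in every group, and their summed level was 746 to 781 CPM in MV4-11 AC220, against 446 to 476 CPM in MV4-11 DMSO, and 743 to 800 CPM in OCI-AML3 AC220, against 716 to 732 CPM in OCI-AML3 DMSO. All 4 erythroid markers were at 0 in the 12 libraries. The B cell markers together held 5.01 to 5.90 CPM in MV4-11 AC220, against 1.67 to 2.49 CPM in MV4-11 DMSO, and at most 0.777 CPM in OCI-AML3. The T cell markers together reached at most 1.18 CPM, the epithelial markers 0.272 and the fibroblast markers 9.06.

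The first comparison asked which transporter genes responded to AC220 in MV4-11. Together the 30 genes held 663 ± 9.42 CPM in MV4-11 AC220 and 2283 ± 45.8 CPM in MV4-11 DMSO (SD, n = 3 each). The 3 AC220 libraries lay far below the 3 DMSO libraries, and neither group spread into the other. At an adjusted p under 0.05 (edgeR's quasi-likelihood test, Benjamini-Hochberg over 12392 genes), 15 of the 30 genes fell, 8 rose and 7 were not called, that is 23 of 30 called (76.7%) where 58.3% of all tested genes were called. Of all tested genes 26.9% fell and 31.5% rose. The median log2 fold change was -0.67 over the 30 genes and 0.07 over all tested genes. Of those that fell 12 did so by at least 2-fold, and of those that rose 3 did. Of all 12392 tested genes 1083 fell and 1206 rose by at least 2-fold. The libraries of the groups did not overlap for any of the 23, which was also so for 95.1% of all called genes. Without SLC6A12 and SLC38A4, which passed the filter through the group where they were high, 14 fell and 7 rose. Plain library totals in place of TMM moved the median of all genes by -0.10 on the log2 scale and called the same 23 genes. The summed levels of the myeloid and B cell markers moved with treatment in MV4-11, and their part in these results was not tested.

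**Figure D1:**
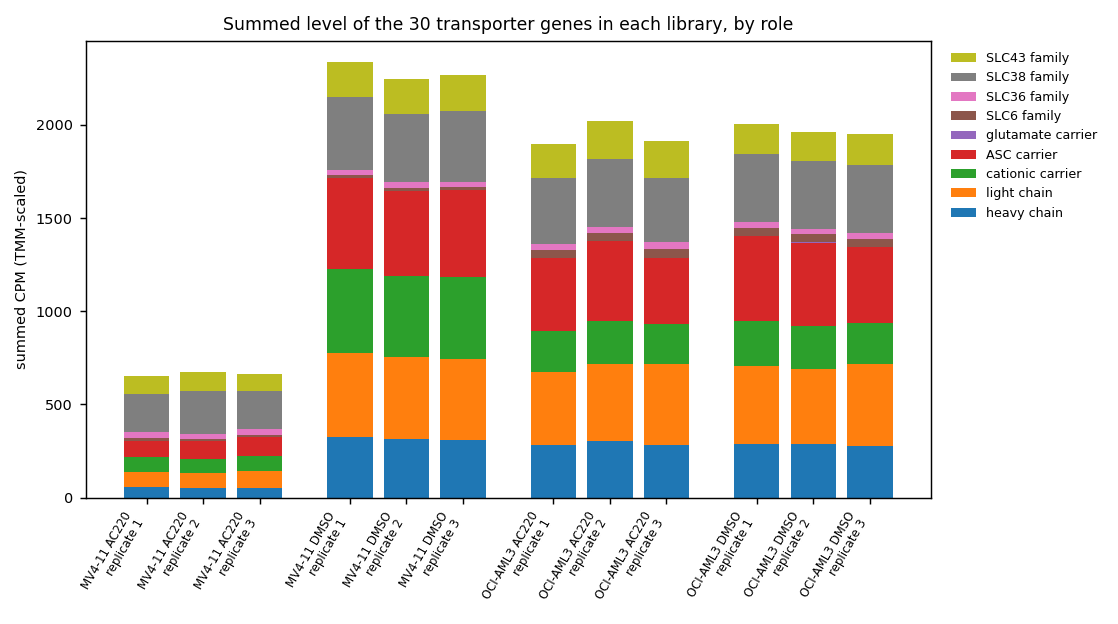
Summed CPM of the 30 transporter genes in each of the 12 libraries, 1 bar per library, stacked by role. The MV4-11 AC220 bars stand lowest (663 ± 9.42 CPM) and the other 9 near or above the level of OCI-AML3, which averaged 1943 ± 65.7 CPM under AC220 and 1972 ± 26 CPM under DMSO.

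SLC3A2 encodes CD98hc, the heavy chain shared by most surface light chains. SLC3A2 stood at 52.0, 47.0 and 47.0 CPM in MV4-11 AC220, against 321, 306 and 303 CPM in MV4-11 DMSO. Every AC220 library was below every DMSO library. Its level was 6.36-fold lower with AC220 (log2 fold change -2.67, SE 0.0679, adjusted p 3.06e-23, edgeR's quasi-likelihood test). SLC3A1, the heavy chain of the cystine transporter of kidney and gut, averaged 5.83 ± 0.877 CPM in MV4-11 AC220 and 5.46 ± 0.841 CPM in MV4-11 DMSO and was not called (log2 difference 0.10, 95% interval -0.36 to 0.56, edgeR adjusted p 0.683). SLC3A1 overlaps PREPL on the other strand at its 3' end. The strand setting of the counting was not given in the sources used here, so reads of the pair cannot be told apart.

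Among the 5 light chains 2 fell, 2 rose and 1 was not called. SLC7A5 encodes LAT1, the light chain that exchanges glutamine for leucine and other large neutral amino acids. SLC7A5 stood at 24.0, 23.6 and 26.8 CPM in MV4-11 AC220, against 360, 354 and 346 CPM in MV4-11 DMSO. The groups lay far apart, and the change, 14.2-fold lower with AC220, was the largest fall among the 30 genes (log2 fold change -3.83, SE 0.0761, adjusted p 1.19e-25 by edgeR's quasi-likelihood test). SLC7A11 encodes xCT, which brings in cystine in exchange for glutamate and so feeds glutathione synthesis. It stood at 5.47, 4.10 and 6.99 CPM in MV4-11 AC220, against 49.5, 44.9 and 49.5 CPM in MV4-11 DMSO. All AC220 libraries were below all DMSO libraries, an 8.67-fold lower level (log2 fold change -3.12, SE 0.129, edgeR adjusted p 1.63e-18). SLC7A5 has processed pseudogene copies elsewhere in the genome, and how reads with several positions were treated was not given in the sources used here.

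SLC7A6 and SLC7A7 are the light chains that export cationic amino acids such as arginine in exchange for neutral ones. SLC7A6 averaged 44.9 ± 4.17 CPM in MV4-11 AC220 and 35.9 ± 0.874 CPM in MV4-11 DMSO and rose by 0.32 on the log2 scale (edgeR adjusted p 0.00303), and SLC7A7 averaged 6.66 ± 0.966 and 4.32 ± 0.542 CPM in the same groups and rose by 0.62 (edgeR adjusted p 0.0110). Both rises rested on few libraries. Without MV4-11 AC220 replicate 3 neither was called (SLC7A6 0.20, edgeR adjusted p 0.0902, and SLC7A7 0.51, edgeR adjusted p 0.0631), and SLC7A7 was not called without MV4-11 DMSO replicate 3 (0.53, edgeR adjusted p 0.0587). SLC7A6 overlaps SLC7A6OS on the other strand at its 3' end, and SLC7A6OS also rose, averaging 32.4 ± 2.02 CPM in MV4-11 AC220 and 26.9 ± 0.886 CPM in MV4-11 DMSO (log2 fold change 0.27, edgeR adjusted p 0.0218). SLC7A10, a carrier of small neutral amino acids and D-serine, averaged 0.721 ± 0.693 CPM in MV4-11 AC220 and 1.20 ± 0.583 CPM in MV4-11 DMSO and was not called (edgeR adjusted p 0.270). It was called lower without MV4-11 AC220 replicate 1 (log2 fold change -1.87, edgeR adjusted p 0.0110). LRP3 overlaps it on the other strand.

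The level of SLC7A5 relative to its heavy chain also differed between the groups of MV4-11. The ratio of SLC7A5 to SLC3A2 counts was 0.461, 0.503 and 0.569 in MV4-11 AC220, against 1.121, 1.156 and 1.142 in MV4-11 DMSO. It was 1.02, 0.982 and 1.10 in OCI-AML3 AC220, against 1.08, 1.00 and 1.19 in OCI-AML3 DMSO. The MV4-11 AC220 libraries had less SLC7A5 than SLC3A2, and in the other groups the genes were near equal. Ratios were not tested.

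SLC7A1 encodes CAT1, the main carrier of arginine and lysine in most growing cells. SLC7A1 stood at 83.3, 77.6 and 81.6 CPM in MV4-11 AC220, against 446, 435 and 439 CPM in MV4-11 DMSO, where it was the highest of the 30 genes. The replicates of each group were close together, and the level was 5.44-fold lower with AC220 (log2 fold change -2.44, SE 0.0637, edgeR adjusted p 5.11e-23). SLC7A2, the inducible cationic carrier, had 3 counts over the MV4-11 AC220 libraries and 4 over the MV4-11 DMSO libraries, a ratio of 1.04 with a 95% counting interval of 0.152 to 6.14, so that no difference was detectable at this depth.

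Both ASC carriers, which exchange alanine, serine, cysteine and in the case of SLC1A5 glutamine, fell in MV4-11. SLC1A5 stood at 63.6, 67.4 and 73.9 CPM in MV4-11 AC220, against 379, 355 and 360 CPM in MV4-11 DMSO, 5.34-fold lower (log2 fold change -2.42, SE 0.0769, edgeR adjusted p 4.25e-21). SLC1A4 stood at 19.6, 26.3 and 25.5 CPM in MV4-11 AC220, against 110, 104 and 107 CPM in MV4-11 DMSO, 4.51-fold lower (log2 fold change -2.17, SE 0.0935, edgeR adjusted p 4.36e-18). For both genes each AC220 library was below each DMSO library. SLC1A3, the glutamate carrier EAAT1 best known from astrocytes, went the other way. It stood at 3.04, 2.05 and 2.91 CPM in MV4-11 AC220, against 1.33, 0.898 and 0.965 CPM in MV4-11 DMSO, on 94 counts and 52 counts. The groups did not overlap, and SLC1A3 rose 2.49-fold (log2 fold change 1.31, SE 0.363, edgeR adjusted p 0.00274).

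**Figure D2:**
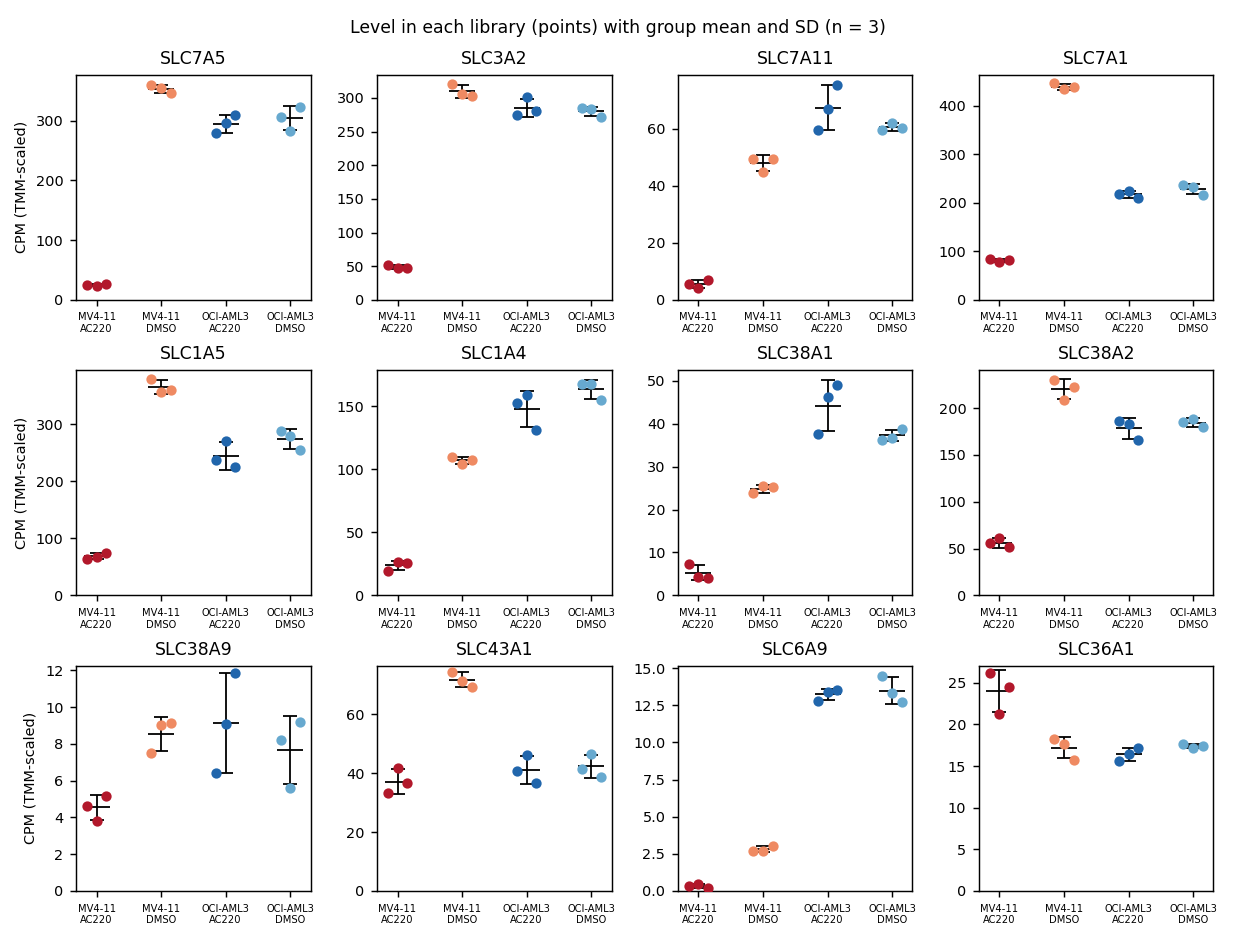
Level in CPM, scaled by TMM, of 12 transporter genes in each library (points), with the mean and SD of the 3 libraries of each group (bars). In 11 of the panels the MV4-11 AC220 points lie below the MV4-11 DMSO points, and for SLC36A1 they lie above them.

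The SLC38 family, sodium-coupled and lysosomal carriers of neutral amino acids, was split. Of its 8 members 4 fell, 3 rose and 1 was not called. SLC38A2, or SNAT2, which rises in starved cells of many kinds, stood at 55.9, 61.7 and 51.2 CPM in MV4-11 AC220, against 230, 209 and 223 CPM in MV4-11 DMSO, 3.92-fold lower (log2 fold change -1.97, SE 0.0740, edgeR adjusted p 1.65e-19). SLC38A1, or SNAT1, stood at 7.22, 4.38 and 4.09 CPM in MV4-11 AC220, against 23.8, 25.5 and 25.2 CPM in MV4-11 DMSO, 4.67-fold lower (log2 fold change -2.22, SE 0.151, edgeR adjusted p 3.75e-13). SLC38A5, or SNAT5, a carrier of glutamine, serine and glycine, stood at 8.43, 7.35 and 7.54 CPM in MV4-11 AC220, against 28.7, 28.3 and 25.8 CPM in MV4-11 DMSO, 3.53-fold lower (log2 fold change -1.82, SE 0.11, edgeR adjusted p 1.43e-14). In all of these the AC220 libraries were below the DMSO libraries without overlap.

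SLC38A9 sits in the lysosomal membrane, where it senses arginine for mTORC1. SLC38A9 stood at 4.63, 3.82 and 5.18 CPM in MV4-11 AC220, against 7.48, 9.05 and 9.13 CPM in MV4-11 DMSO, 1.88-fold lower (log2 fold change -0.91, SE 0.217, edgeR adjusted p 0.000712). The groups did not overlap. SLC38A10, a carrier of neutral amino acids that lies mostly inside the cell, averaged 122 ± 10.2 CPM in MV4-11 AC220 and 87.4 ± 2.35 CPM in MV4-11 DMSO and rose by 0.48 on the log2 scale (edgeR adjusted p 2.03e-06). It made up 18.4% of the summed level of the 30 genes in MV4-11 AC220, where it was the highest, followed by SLC7A1 with 12.2%, SLC1A5 with 10.3% and SLC38A2 with 8.49%. In MV4-11 DMSO the highest were SLC7A1 with 19.3%, SLC1A5 with 16.0%, SLC7A5 with 15.5% and SLC3A2 with 13.6%. SLC38A6 averaged 7.53 ± 0.656 CPM in MV4-11 AC220 and 4.41 ± 0.854 CPM in MV4-11 DMSO and rose by 0.77 (edgeR adjusted p 0.00404).

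SLC38A4, or SNAT4, best known from liver, had 26, 34 and 14 counts in MV4-11 AC220, against 4, 5 and 9 counts in MV4-11 DMSO. The groups did not overlap, and its fitted level was 5.59-fold higher with AC220 on these low counts (log2 fold change 2.48, SE 0.571). SLC38A4 passed the filter on low counts, and reached the minimum total, through the AC220 libraries. The fit without that filter gave a log2 fold change of 2.46 (edgeR adjusted p 8.23e-05), a p-value still subject to the selection by total. SLC38A7, which exports glutamine from lysosomes, averaged 7.56 ± 0.0607 CPM in MV4-11 AC220 and 5.85 ± 0.861 CPM in MV4-11 DMSO. Its groups did not overlap but it was not called (log2 difference 0.37, edgeR adjusted p 0.0688). With upper-quartile scaling it was called (0.41, edgeR adjusted p 0.0437).

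SLC36A1, or PAT1, moves small amino acids with protons out of lysosomes. SLC36A1 stood at 26.2, 21.2 and 24.5 CPM in MV4-11 AC220, against 18.2, 17.6 and 15.8 CPM in MV4-11 DMSO. Every AC220 library was above every DMSO library, and SLC36A1 rose by 0.48 on the log2 scale (SE 0.112, edgeR adjusted p 0.000519). Its relative SLC36A4 averaged 6.87 ± 0.559 CPM in MV4-11 AC220 and 11.0 ± 1.02 CPM in MV4-11 DMSO and fell by 0.68 on the log2 scale (edgeR adjusted p 0.000467).

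In the SLC43 family 2 genes fell and 1 rose. SLC43A1 and SLC43A2 encode LAT3 and LAT4, which let leucine and other large neutral amino acids pass without exchange. SLC43A1 stood at 33.1, 41.8 and 36.6 CPM in MV4-11 AC220, against 74.5, 71.5 and 69.5 CPM in MV4-11 DMSO, 1.94-fold lower (log2 fold change -0.95, SE 0.0963, edgeR adjusted p 1.07e-09). SLC43A2 stood at 21.6, 22.1 and 25.0 CPM in MV4-11 AC220, against 4.76, 5.20 and 4.69 CPM in MV4-11 DMSO, and rose 4.68-fold (log2 fold change 2.23, SE 0.144, edgeR adjusted p 6.29e-14). The relatives thus moved in opposite directions without overlap of the groups. The ratio of SLC43A1 to SLC43A2 counts was 1.53, 1.89 and 1.47 in MV4-11 AC220, against 15.7, 13.8 and 14.8 in MV4-11 DMSO. SLC43A3, a relative known to carry purine nucleobases rather than amino acids, stood at 40.6, 36.2 and 30.2 CPM in MV4-11 AC220, against 104, 111 and 121 CPM in MV4-11 DMSO, 3.14-fold lower (log2 fold change -1.65, SE 0.0946, edgeR adjusted p 1.28e-14).

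The SLC6 family holds sodium- and chloride-coupled carriers best known from neurons, and 2 of its 5 members fell. SLC6A9, the glycine carrier GlyT1, had 4, 5 and 2 counts in MV4-11 AC220, against 46, 42 and 47 counts in MV4-11 DMSO, 8.64-fold lower (log2 fold change -3.11, SE 0.330, edgeR adjusted p 2.93e-09). SLC6A12, the betaine and GABA carrier BGT1, had 1, 4 and 1 counts in MV4-11 AC220, against 44, 27 and 28 counts in MV4-11 DMSO, 11.3-fold lower as fitted (log2 fold change -3.49, SE 0.605) and 22.3-fold lower without MV4-11 AC220 replicate 2. SLC6A12 passed the filter, and reached the minimum total, through the DMSO libraries. The fit without that filter gave a log2 fold change of -3.52 (edgeR adjusted p 7.18e-08), a p-value still subject to the selection by total. Both were low genes whose AC220 libraries were near the floor and whose groups did not overlap. CCDC24 overlaps SLC6A9 on the other strand at its 3' end, and it fell as well, averaging 1.51 ± 0.860 CPM in MV4-11 AC220 and 2.77 ± 0.339 CPM in MV4-11 DMSO (log2 fold change -0.85, edgeR adjusted p 0.0145). SLC6A6, the taurine carrier, stood at 7.37, 6.42 and 7.54 CPM in MV4-11 AC220, against 7.25, 10.2 and 8.29 CPM in MV4-11 DMSO, with overlapping groups, and was not called (log2 difference -0.27, edgeR adjusted p 0.238). SLC6A8, the creatine carrier, was not called at 0.890 ± 0.474 CPM in MV4-11 AC220 and 0.658 ± 0.0888 CPM in MV4-11 DMSO (edgeR adjusted p 0.388), nor was the GABA carrier SLC6A13, with 74 counts over the MV4-11 AC220 libraries and 59 over the MV4-11 DMSO libraries (edgeR adjusted p 0.173).

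The same dose was given to OCI-AML3, the line without the duplication. The 30 genes held 1943 ± 65.7 CPM in OCI-AML3 AC220 and 1972 ± 26 CPM in OCI-AML3 DMSO (SD, n = 3 each). By edgeR's quasi-likelihood test 2 of the 30 genes rose (6.67%) and none fell, where 3.95% of all tested genes were called, 3.44% higher and 0.508% lower. At an unadjusted p under 0.05, 3 genes were higher and 2 lower, and DESeq2 and limma-voom each called 2 higher and 0 lower. The median log2 difference was -0.07 over the 30 genes and 0.00 over all tested genes.

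SLC43A3 stood at 128, 143 and 144 CPM in OCI-AML3 AC220, against 104, 96.5 and 117 CPM in OCI-AML3 DMSO, and rose by 0.39 on the log2 scale (SE 0.0876, edgeR adjusted p 0.0163). SLC6A6 stood at 8.30, 10.8 and 13.8 CPM in OCI-AML3 AC220, against 6.68, 5.09 and 7.37 CPM in OCI-AML3 DMSO, and rose by 0.79 (SE 0.190, edgeR adjusted p 0.0206). The groups did not overlap for either gene, but both calls depended on single libraries and on the tool. The edgeR adjusted p of SLC43A3 was 0.0703 without AC220 replicate 2, 0.118 without AC220 replicate 3, 0.119 without DMSO replicate 1 and 0.147 without DMSO replicate 2. That of SLC6A6 was 0.0665, 0.190, 0.119 and 0.168 without the same libraries. By limma on the deposited normalised values neither was called (adjusted p 0.0577 for SLC43A3 and 0.0595 for SLC6A6).

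SLC6A6 shares its 3' end with GRIP2 on the other strand. GRIP2 stood at 4.24, 7.08 and 10.6 CPM in OCI-AML3 AC220, against 2.80, 2.13 and 3.54 CPM in OCI-AML3 DMSO, and rose by 1.38 on the log2 scale (SE 0.269, edgeR adjusted p 0.00808). In MV4-11 GRIP2 averaged 4.35 ± 0.377 CPM under AC220 and 4.37 ± 0.839 CPM under DMSO. Reads of SLC6A6 and GRIP2 cannot be told apart without the strand setting, and which of them the rise belongs to was not tested.

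Of the 15 genes that fell in MV4-11, 14 were not called in OCI-AML3 and SLC43A3 was higher there. SLC7A5 stood at 280, 296 and 309 CPM in OCI-AML3 AC220, against 307, 283 and 322 CPM in OCI-AML3 DMSO, with overlapping groups (log2 difference -0.04, 95% interval -0.19 to 0.10, edgeR adjusted p 0.752). SLC3A2 stood at 275, 301 and 281 CPM in OCI-AML3 AC220, against 285, 283 and 272 CPM in OCI-AML3 DMSO, again overlapping (0.03, interval -0.11 to 0.17, edgeR adjusted p 0.844). SLC7A11 averaged 67.3 ± 7.90 and 60.6 ± 1.40 CPM in OCI-AML3 AC220 and DMSO (0.15, interval -0.07 to 0.38). A p above the threshold does not show that the groups were alike, and the intervals give the sizes of change that these libraries leave possible.

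SLC7A1 averaged 218 ± 6.5 CPM in OCI-AML3 AC220 and 228 ± 10.6 CPM in OCI-AML3 DMSO (log2 difference -0.07, 95% interval -0.21 to 0.07). SLC1A5 averaged 244 ± 24.2 and 274 ± 17.8 CPM in these groups (-0.16, interval -0.33 to 0.00), and SLC1A4 147 ± 14.3 and 163 ± 7.50 CPM (-0.15, interval -0.34 to 0.04). SLC38A2 averaged 178 ± 11.0 CPM in OCI-AML3 AC220 and 185 ± 4.35 CPM in OCI-AML3 DMSO, and SLC38A1 44.2 ± 5.96 and 37.3 ± 1.35 CPM. Each of these had overlapping groups and was not called. SLC38A5 averaged 40.3 ± 2.13 and 43.9 ± 1.27 CPM, SLC38A9 9.12 ± 2.73 and 7.68 ± 1.84 CPM, SLC43A1 41.2 ± 4.70 and 42.3 ± 3.95 CPM, SLC43A2 12.8 ± 1.43 and 12.3 ± 1.32 CPM, and SLC6A9 13.2 ± 0.378 and 13.5 ± 0.884 CPM in OCI-AML3 AC220 and OCI-AML3 DMSO, all uncalled with overlapping groups.

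For 2 of the 28 uncalled genes (7.14%) the OCI-AML3 groups did not overlap, where 20.9% of all uncalled genes did not. SLC36A1 averaged 16.4 ± 0.753 CPM in OCI-AML3 AC220 and 17.4 ± 0.238 CPM in OCI-AML3 DMSO (log2 difference -0.08, edgeR adjusted p 0.747). SLC6A12 had 3, 3 and 2 counts in OCI-AML3 AC220, against 18, 11 and 4 counts in OCI-AML3 DMSO (-1.98, edgeR adjusted p 0.0767), and it was called lower without OCI-AML3 DMSO replicate 3 (-2.40, edgeR adjusted p 0.0235). SLC38A4 had 1, 1 and 2 counts in OCI-AML3 AC220, against 0, 0 and 8 counts in OCI-AML3 DMSO, so that its level there rested on 1 library. SLC1A3 averaged 0.592 ± 0.217 CPM in OCI-AML3 AC220 and 0.821 ± 0.319 CPM in OCI-AML3 DMSO, with overlapping groups.

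**Figure D3:**
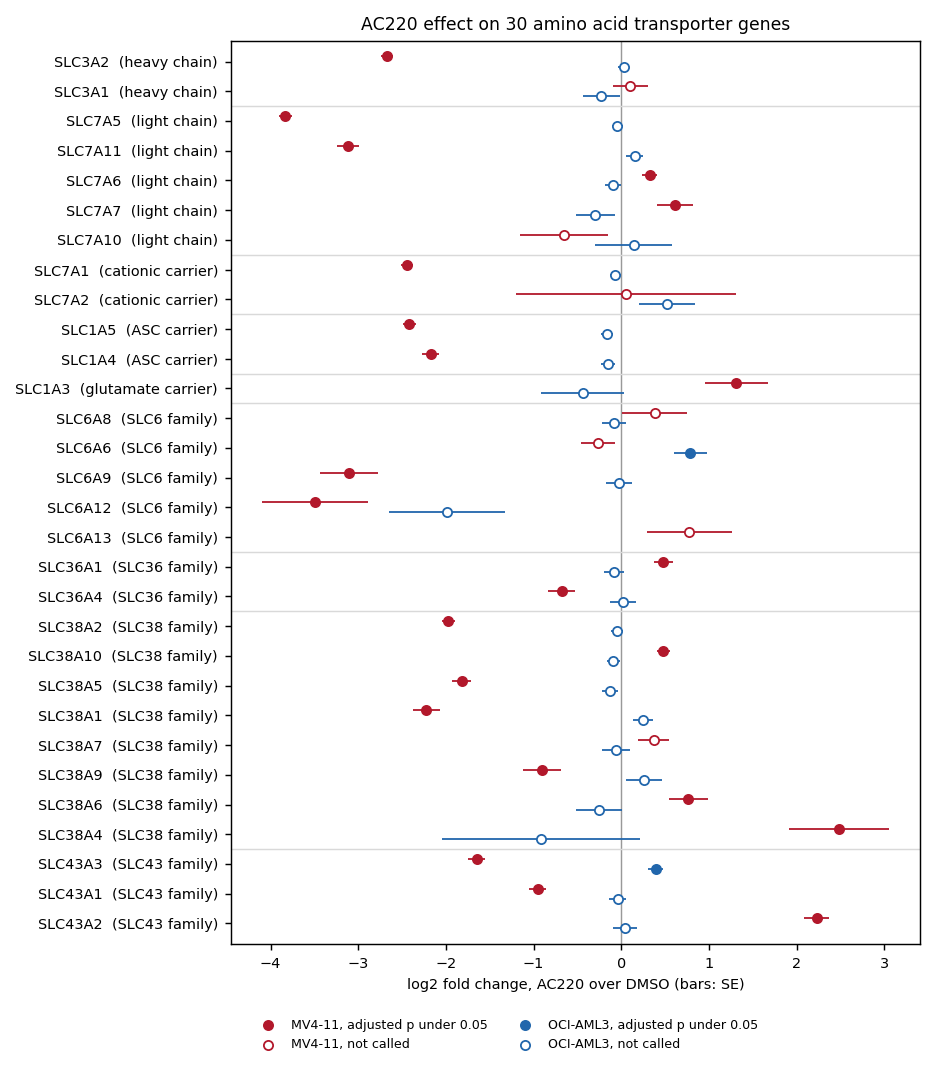
Log2 fold change of AC220 over DMSO for the 30 transporter genes, ordered by role, in MV4-11 (red) and OCI-AML3 (blue), with SE as bars; filled points have an adjusted p under 0.05. The MV4-11 points run from -3.83 for SLC7A5 to 2.48 for SLC38A4, and 28 of the 30 genes are uncalled in OCI-AML3, where no point is drawn for SLC6A13, which had 0 counts under AC220 and 1 under DMSO.

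Whether the response differed between the lines was tested directly, as the AC220 effect in MV4-11 minus that in OCI-AML3. The effects differed for 23 of the 30 genes by edgeR's quasi-likelihood test, 15 lower and 8 higher in MV4-11. Of all tested genes 46.7% were called, 23.7% lower and 23% higher. SLC38A4, among the 8 higher, passed the filter on low counts through MV4-11 under AC220. The median difference was -0.85 on the log2 scale over the 30 genes and 0.03 over all tested genes. SLC7A5 had the most negative difference (-3.79, SE 0.0982), and SLC7A11 (-3.27, SE 0.163), SLC6A9 (-3.09, SE 0.372) and SLC3A2 (-2.70, SE 0.0908) followed. Among the differences above 0, SLC43A2 reached 2.18 (SE 0.199). SLC6A12 fell in MV4-11 and its effect was not shown to differ between the lines (-1.51, 95% interval -3.92 to 0.91, edgeR adjusted p 0.246).

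Several of these differences rested on low counts or single libraries. The largest one above 0 was that of SLC38A4 (3.40, SE 1.31), which passed the filter on low counts through MV4-11 under AC220. The fit without that filter gave 3.37 (edgeR adjusted p 0.0158), still subject to the selection of SLC38A4 by its total. With the filter the edgeR adjusted p was 0.0333, and the difference turned to -1.10 (edgeR adjusted p 0.553) without OCI-AML3 DMSO replicate 3. It was also not called without MV4-11 AC220 replicate 2 (edgeR adjusted p 0.0656), MV4-11 DMSO replicate 1 (0.0625), MV4-11 DMSO replicate 2 (0.0550), OCI-AML3 AC220 replicate 1 (0.0549) or OCI-AML3 AC220 replicate 2 (0.0744), nor by limma-voom (1.96, adjusted p 0.167). Without OCI-AML3 DMSO replicate 3 the difference was not called for SLC1A3 (1.5, edgeR adjusted p 0.0703) or SLC38A6 (0.64, edgeR adjusted p 0.128). SLC7A6 was not called with plain library totals (0.30, edgeR adjusted p 0.0507), and SLC7A10 was called without MV4-11 AC220 replicate 1 (-2.01, edgeR adjusted p 0.0247).

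The lines were also compared under each treatment. These comparisons share libraries with those above, so values are given side by side and no agreement between them is read as a result. Under DMSO 9 of the 30 genes were higher and 10 lower in MV4-11 than in OCI-AML3 (19 of 30, 63.3%), by edgeR's quasi-likelihood test, where 65.5% of all tested genes were called, 32.1% higher and 33.4% lower, so that the share called was near that of all genes. Of the called genes 2 were higher and 4 lower by at least 2-fold, where 1683 and 1691 of all 12392 tested genes were. SLC6A13 and SLC6A12, the 2 higher, and SLC7A2, among the 4 lower, passed the filter on low counts through the groups where they were high. Under AC220 9 were higher and 17 lower in MV4-11 (26 of 30, 86.7%), where 76.2% of all tested genes were called, 36.7% higher and 39.5% lower. Of these 4 were higher and 14 lower by at least 2-fold, where 2440 and 2506 of all 12392 tested genes were. SLC6A13 and SLC38A4, among the 4 higher, and SLC7A2, among the 14 lower, passed the filter in the same way. The counts of called genes include them. The median log2 difference between lines was 0.11 under DMSO and -0.98 under AC220 over the 30 genes, and 0.01 and -0.03 over all tested genes.

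SLC6A8, the creatine carrier, set the lines apart under both treatments. It averaged 0.890 ± 0.474 CPM in MV4-11 and 22 ± 0.894 CPM in OCI-AML3 under AC220, and 0.658 ± 0.0888 CPM in MV4-11 and 23.4 ± 1.75 CPM in OCI-AML3 under DMSO. Each MV4-11 library was far below each OCI-AML3 library, 25.3-fold lower under AC220 (log2 difference -4.66) and 34.9-fold lower under DMSO (-5.13, SE 0.211, edgeR adjusted p 8.93e-19). SLC6A8 has pseudogene copies, so its reads may be divided or lost. SLC7A2 had 0, 0 and 3 counts in MV4-11 AC220 and averaged 4.83 ± 0.439 CPM in OCI-AML3 AC220, and it had 0, 4 and 0 counts in MV4-11 DMSO and averaged 3.37 ± 1.0 CPM in OCI-AML3 DMSO. Under AC220 its ratio of OCI-AML3 to MV4-11, on 192 and 3 counts, was 56.7 with a 95% counting interval of 19.1 to 277, and under DMSO its fitted level was 36.8-fold lower in MV4-11 (log2 difference -5.20). In each MV4-11 group all counts lay in 1 library, and without it the group had none.

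SLC6A13 went the other way. It had 74 counts over the MV4-11 AC220 libraries and 0 over the OCI-AML3 AC220 libraries, at least 27.8-fold higher in MV4-11 at a floor of 3 counts over the group. Under DMSO it had 59 counts in MV4-11 and 1 in OCI-AML3, a ratio of 48.6 with a 95% counting interval of 8.39 to 1952. Intervals and floors cover counting error only. SLC6A9 averaged 0.317 ± 0.142 CPM in MV4-11 AC220 and 13.2 ± 0.378 CPM in OCI-AML3 AC220, 40.9-fold lower (edgeR adjusted p 5.11e-17), and 2.80 ± 0.197 CPM in MV4-11 DMSO and 13.5 ± 0.884 CPM in OCI-AML3 DMSO, 4.82-fold lower (edgeR adjusted p 1.62e-12). SLC6A12, which averaged 2.03 ± 0.455 CPM in MV4-11 DMSO and 0.841 ± 0.555 CPM in OCI-AML3 DMSO, was higher in MV4-11 (log2 difference 1.28, edgeR adjusted p 0.0118, and 0.0108 without the filter on low counts) but not called without MV4-11 DMSO replicate 1 (edgeR adjusted p 0.0718) or OCI-AML3 DMSO replicate 3 (edgeR adjusted p 0.103).

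The order of the lines turned with treatment for the 5 genes that were highest in MV4-11 DMSO and in both OCI-AML3 groups. It did not turn for SLC38A10, the highest in MV4-11 AC220 (log2 difference 0.74 under AC220 and 0.17 under DMSO). SLC7A1 was lower in MV4-11 under AC220 (80.8 ± 2.89 CPM, against 218 ± 6.5 CPM in OCI-AML3, log2 difference -1.43) and higher under DMSO (440 ± 6.0 CPM, against 228 ± 10.6 CPM, 0.95). SLC1A5 was lower in MV4-11 under AC220 (68.3 ± 5.23 CPM, against 244 ± 24.2 CPM in OCI-AML3, -1.84) and higher under DMSO (365 ± 12.5 CPM, against 274 ± 17.8 CPM, 0.41). SLC7A5 was lower in MV4-11 under AC220 (24.8 ± 1.72 CPM, against 295 ± 14.7 CPM in OCI-AML3, 11.9-fold) and higher under DMSO (353 ± 6.99 CPM, against 304 ± 19.6 CPM, log2 difference 0.22). SLC38A2 and SLC3A2 had the same order, with log2 differences of -1.66 and -2.55 under AC220 and 0.26 and 0.15 under DMSO. The DMSO call of SLC3A2 (edgeR adjusted p 0.0349) was lost without MV4-11 DMSO replicate 1 (0.137), MV4-11 DMSO replicate 2 (0.0609), OCI-AML3 DMSO replicate 1 (0.0541) or OCI-AML3 DMSO replicate 3 (0.11) and with median-ratio size factors (0.0505). SLC43A2 had the opposite order, higher in MV4-11 under AC220 (22.9 ± 1.81 CPM, against 12.8 ± 1.43 CPM in OCI-AML3, 0.84) and lower under DMSO (4.88 ± 0.274 CPM, against 12.3 ± 1.32 CPM, -1.34).

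SLC7A11, SLC1A4, SLC38A1 and SLC38A5 were lower in MV4-11 under both treatments. Their log2 differences under AC220 were -3.61, -2.64, -3.06 and -2.36, and those under DMSO were -0.34, -0.61, -0.59 and -0.67. The groups did not overlap for any of them. SLC43A3 averaged 35.6 ± 5.23 CPM in MV4-11 and 139 ± 8.77 CPM in OCI-AML3 under AC220 (-1.96), and 112 ± 8.61 CPM in MV4-11 and 106 ± 10.1 CPM in OCI-AML3 under DMSO, where it was not called (edgeR adjusted p 0.403). SLC43A1 averaged 37.2 ± 4.37 CPM in MV4-11 and 41.2 ± 4.70 CPM in OCI-AML3 under AC220, which was not called (-0.15, edgeR adjusted p 0.164) but was called with plain library totals (-0.23, edgeR adjusted p 0.0293) and without OCI-AML3 AC220 replicate 3 (-0.24, edgeR adjusted p 0.0437). Under DMSO it averaged 71.9 ± 2.53 CPM in MV4-11 and 42.3 ± 3.95 CPM in OCI-AML3 and was higher in MV4-11 (0.76, edgeR adjusted p 3.90e-08).

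Among the genes that rose in MV4-11, SLC1A3, SLC38A6, SLC38A4, SLC7A7 and SLC36A1 were higher in MV4-11 than in OCI-AML3 under AC220. Their log2 differences were 2.13, 1.38, 4.27, 0.92 and 0.55 in that order, and none of them was called under DMSO. SLC38A4 passed the filter on low counts through MV4-11 under AC220, and without that filter its difference was 4.25 (edgeR adjusted p 3.23e-08). That p-value too is subject to the selection of SLC38A4 by its total. SLC38A4 and SLC38A6 were called higher under DMSO without OCI-AML3 DMSO replicate 3 (edgeR adjusted p 0.00714 and 0.0141). SLC38A10 was higher by 0.74 under AC220 and by 0.17 under DMSO, where its call (edgeR adjusted p 0.0431) was lost without any 1 of the MV4-11 DMSO libraries (0.129, 0.0567 and 0.0889 without replicates 1, 2 and 3) or without OCI-AML3 DMSO replicate 3 (0.169), and with other size factors, no filter or DESeq2 (0.0503 to 0.0664). SLC6A6 was lower in MV4-11 under AC220 (-0.63, edgeR adjusted p 0.00377) but not without OCI-AML3 AC220 replicate 3 (edgeR adjusted p 0.0510). Under DMSO SLC6A6 lay just outside the threshold (0.42, edgeR adjusted p 0.0527) and was called higher in 10 of 22 alternatives. SLC7A10 lay just outside it under AC220 (-1.07, edgeR adjusted p 0.0504) and was called lower in 8 of 21 alternatives, with -2.28 without MV4-11 AC220 replicate 1. SLC3A1 and SLC38A7 passed the threshold narrowly under AC220 (0.46, edgeR adjusted p 0.0468, and -0.40, edgeR adjusted p 0.0331). These calls were lost in 13 and 9 alternatives, and the adjusted p reached 0.209 and 0.174, without MV4-11 AC220 replicate 1 and without OCI-AML3 AC220 replicate 2. Under DMSO SLC38A7 was lower in MV4-11 (-0.83, edgeR adjusted p 6.80e-05), and so was SLC7A6 (-0.41, edgeR adjusted p 0.000183). Both of these DMSO calls held in all 22 alternatives. Under AC220 SLC7A6 was not called (0.002, edgeR adjusted p 0.984).

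**Figure D4:**
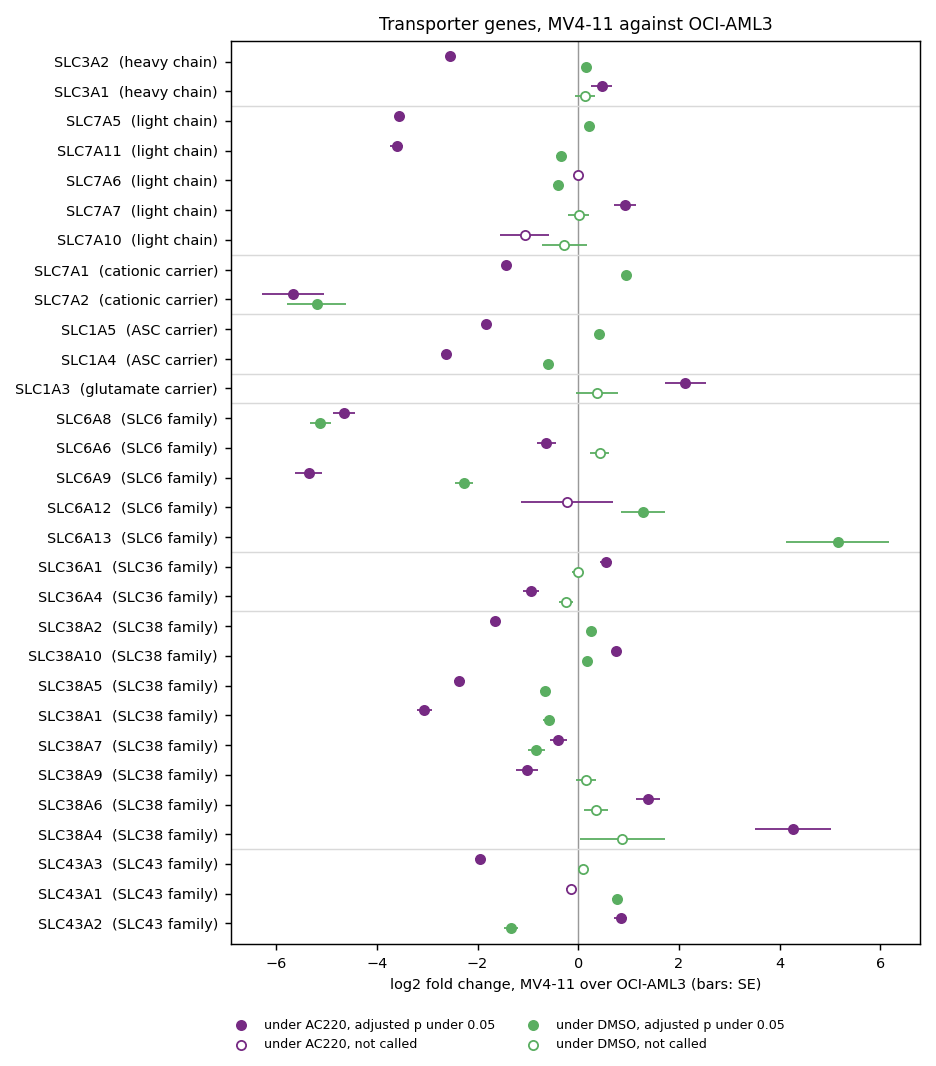
Log2 fold change of MV4-11 over OCI-AML3 for the 30 transporter genes, ordered by role, under AC220 (purple) and under DMSO (green), with SE as bars; filled points have an adjusted p under 0.05. SLC7A5 lies at -3.57 under AC220 and 0.22 under DMSO, and no AC220 point is drawn for SLC6A13, which had 0 counts in OCI-AML3 AC220.

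Carriers of amino acids outside the 7 families were counted beside them. Of 20 fixed genes, mitochondrial, lysosomal and peptide or aromatic amino acid carriers, 18 were tested. In MV4-11 10 rose and 4 fell with AC220, where 31.5% and 26.9% of all tested genes did, and their median log2 fold change was 0.31. Among those that rose were the lysosomal carriers SLC15A3 (1.47) and SLC15A4 (0.88), which carry histidine and peptides, SLC17A5 (0.73), the sialic acid carrier, SLC66A1 (0.68), which exports cationic amino acids, and CTNS (0.66), which exports cystine. The mitochondrial carriers SLC25A29 (1.04), SLC25A38 (0.34), SLC25A44 (0.25) and SFXN3 (0.27) rose too, as did the aromatic amino acid carrier SLC16A10 (2.06), on 19 counts over the AC220 libraries and 6 over the DMSO libraries. SLC15A3 averaged 30.03 ± 2.25 CPM in MV4-11 AC220 and 10.8 ± 0.385 CPM in MV4-11 DMSO, and the groups did not overlap. Those that fell were the mitochondrial serine carrier SFXN1 (-1.45), its relative SFXN2 (-1.20), the vesicular nucleotide carrier SLC17A9 (-0.72) and the mitochondrial aspartate and glutamate carrier SLC25A13 (-0.42). In OCI-AML3, where 3.95% of all tested genes were called, 0 of the 18 were called by edgeR's quasi-likelihood test, with 1 higher and 1 lower at an unadjusted p under 0.05 and 0 by DESeq2 and by limma-voom.

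Regulators of transporter genes were counted in the same way, 16 tested of 17. In MV4-11 8 fell and 5 rose with AC220, where 26.9% and 31.5% of all tested genes did, and DESeq2 called 10 lower and 5 higher. ATF4 averaged 272 ± 40.3 CPM in MV4-11 AC220 and 922 ± 33.8 CPM in MV4-11 DMSO (log2 fold change -1.76), and its partners and targets ATF3 (-3.59), ATF5 (-2.72), DDIT3 (-2.36), CEBPB (-1.54), CEBPG (-1.12) and NUPR1 (-6.09) fell as well. EIF2AK1, a stress kinase upstream of ATF4, fell by 0.20, and EIF2AK4, the kinase that senses uncharged tRNA, rose by 0.53. TFEB, a regulator of lysosomal genes, averaged 22.6 ± 3.21 CPM in MV4-11 AC220 and 7.58 ± 1.35 CPM in MV4-11 DMSO (1.57), and its relative TFE3 rose by 0.64. NFE2L2, the antioxidant regulator, rose by 0.24 and BACH1, which represses some of the same targets, by 0.41, both with overlapping groups. MYC was not called (-0.91, edgeR adjusted p 0.0645). In OCI-AML3 CEBPB (0.51) and CEBPG (0.61) were higher and 0 of the 16 lower by edgeR's quasi-likelihood test, where 3.44% of all tested genes were higher and 0.508% lower. At an unadjusted p under 0.05, 6 were higher and 3 lower, and DESeq2 called 4 higher and 0 lower. Whether these regulators act on the transporter genes here was not tested.

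**Figure D5:**
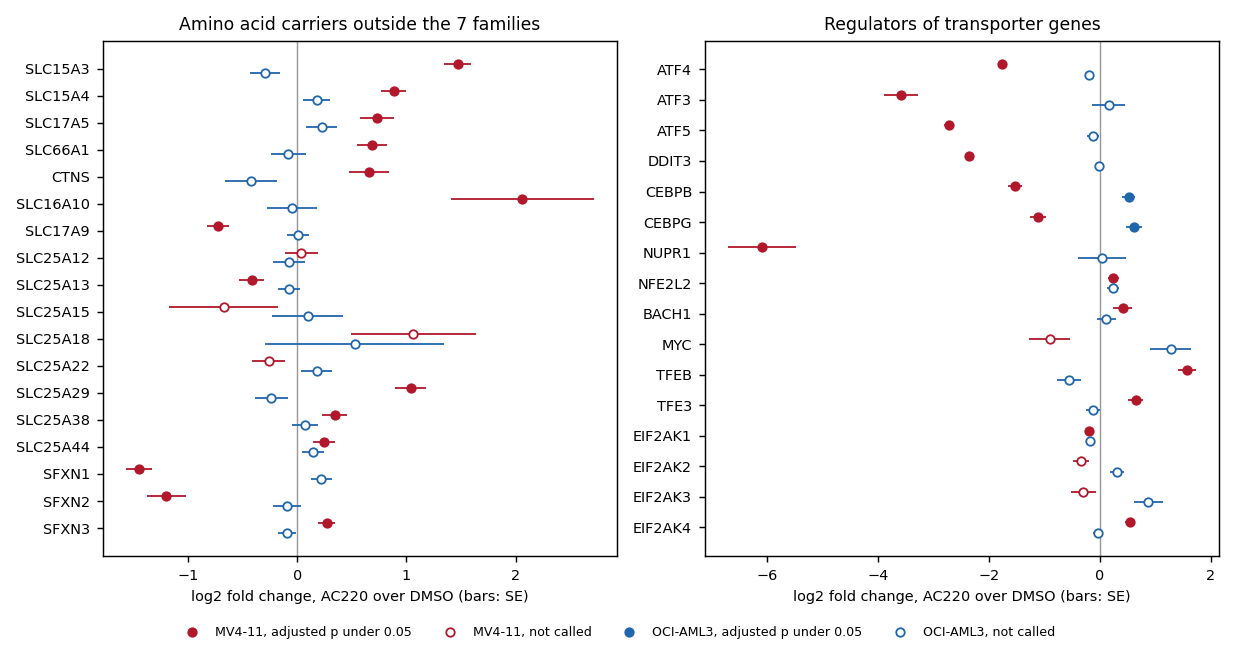
Log2 fold change of AC220 over DMSO for 18 amino acid carriers outside the 7 families (left) and 16 regulators of transporter genes (right), in MV4-11 (red) and OCI-AML3 (blue), with SE as bars; filled points have an adjusted p under 0.05. SLC15A3 lies at 1.47 and ATF4 at -1.76 in MV4-11, and CEBPB and CEBPG are the filled points in OCI-AML3.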

How the data were processed

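RNA of 12 libraries was measured, 3 each of MV4-11 and OCI-AML3 under 5 nM AC220 and under DMSO for 24 h. Per the labels' protocols, DNase-treated total RNA was made into Lexogen QuantSeq 3' mRNA libraries. Per the submitters' processing notes, the tools included HISAT2 2.0.4, featureCounts in Subread 2.0.0, cutadapt 1.9.1 and limma 3.42.2, and the build was hg19. The strand setting and the handling of multi-mapped reads are not given in the sources used here. The deposited counts are raw, 1 row per gene symbol. The authors also gave a table of normalised log2 values, used as an alternative input. A row without a symbol (at most 0.00503% of a library) was left out.

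Counts of all 12 libraries were fitted with edgeR 4.0.16 (R 4.3.3): filterByExpr, TMM, quasi-likelihood F test, a mean per group, 8 residual degrees of freedom, Benjamini-Hochberg adjustment over 12392 genes, threshold 0.05. The biological coefficient of variation was 8.28%. The procedure was also run on simulated counts in which few genes changed, in balanced directions. For AC220 in MV4-11 58.3% of tested genes were called, a setting that the simulation did not cover. CPM are mean ± SD of 3 libraries, and 95% counting intervals are exact. No libraries were identical, and chi-square per degree of freedom within groups was 2.79 to 10.6, so each was counted. Whether the replicates were separate cultures is not in the labels, so the p-values rest on a spread between libraries that may be technical. Alternatives were other scalings and filters, DESeq2 1.42.0, limma-voom and limma (3.58.1) on the deposited values, a replicate block, only the compared libraries, stricter thresholds, other minimum totals and leaving out each library. Plain totals in edgeR were added after seeing the data.

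The 30 genes and the lists were chosen with earlier results of these data known. Genes given with every library's value are 12 key carriers, those called with at least a 2-fold change in MV4-11, and those called in OCI-AML3, 19 in all. Other genes of the families are given by means and counts, and the non-family genes that overlap them were chosen by position. Overlaps come from GENCODE and promoters from RefSeq, neither in the build of the files.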

Additional observations from a re-analysis of the deposited data

Results flagged for a closer look

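The AC220 effect differed between the lines, by edgeR's quasi-likelihood test of the difference itself, for 23 of the 30 transporter genes (76.7%). For the same difference 46.7% of all tested genes were called, 23.7% lower and 23% higher. SLC38A4 is among the 23 and passed the filter on low counts through MV4-11 under AC220. The values are the log2 effect in MV4-11 minus that in OCI-AML3. Among surface carriers the difference was -3.79 for SLC7A5, -3.27 for SLC7A11, -2.70 for SLC3A2, -2.38 for SLC7A1, -2.26 for SLC1A5, -2.02 for SLC1A4, -2.47 for SLC38A1, -1.92 for SLC38A2 and -1.69 for SLC38A5. It was -3.09 for the glycine carrier SLC6A9 and -1.06 for the taurine carrier SLC6A6, which overlaps GRIP2. In the SLC43 family it was -2.04 for SLC43A3, -0.92 for SLC43A1 and 2.18 for SLC43A2. Among lysosomal and other carriers it was -1.17 for SLC38A9, -0.70 for SLC36A4, 0.56 for SLC36A1 and 0.57 for SLC38A10. It was 0.41 for SLC7A6, 0.91 for SLC7A7, 1.02 for SLC38A6, 1.76 for SLC1A3 and 3.40 for SLC38A4, and of these SLC38A4, SLC1A3, SLC38A6 and SLC7A6 lost the call under at least 1 alternative. No cause of these differences was tested.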

How the results depend on the processing

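With each library left out in turn, 21 to 24 transporter genes were called for AC220 in MV4-11. The counts were 20 to 24 for the difference between lines, 17 to 20 for the lines under DMSO and 24 to 26 under AC220. Of all genes 6619 to 7394, 5308 to 6130, 7562 to 8424 and 9150 to 9580 were called, in the same order. For AC220 in OCI-AML3 0 to 3 transporter genes were called, against 2, with 13 to 1136 of all genes, against 489. There 0 of the 30 were called at an adjusted p under 0.01, with a 2-fold change or by limma on the deposited values. Of all genes 47 were called at 0.01, 27 with a 2-fold change, 264 with plain library totals, 836 without a filter, 746 by DESeq2 and 122 by limma on the deposited values. Requiring a 2-fold change left 15 of 23 called transporter genes and 2289 of 7228 genes for AC220 in MV4-11, 2287 of 5792 genes for the difference, 6 of 19 transporter genes and 3374 of 8120 genes for the lines under DMSO, and 4946 of 9437 genes under AC220. With plain library totals the summed level was 635 CPM in MV4-11 AC220 and 2345 CPM in MV4-11 DMSO, against 663 and 2283. A minimum total of 50 would give 32 genes and one of 200 would give 27. Same-numbered libraries of the 2 treatments had correlations of -0.12 to -0.08 in MV4-11 and 0.05 to 0.18 in OCI-AML3. Libraries with different numbers had correlations of -0.02 to 0.11 in MV4-11 and -0.13 to 0.06 in OCI-AML3. A replicate block left 23 called in MV4-11 and 2 in OCI-AML3.

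Of the named genes' fold changes 6 changed sign under at least 1 alternative, all in OCI-AML3, where none of the 6 was called. Leaving out 1 library gave -0.083 to 0.00055 for SLC38A2, -0.0099 to 0.055 for SLC3A2, -0.13 to 0.040 for SLC43A1, -0.027 to 0.14 for SLC43A2, -0.067 to 0.027 for SLC6A9 and -1.48 to 3.58 for SLC38A4. The others were, by limma-voom SLC38A4 (0.46), and by limma on the deposited values SLC43A2 (-0.0066). The cause was not tested. Depth limits the genes with few counts. SLC1A3, SLC38A4, SLC6A12, SLC6A13 and SLC7A10 had under 100 counts in every group, SLC6A8 and SLC7A2 in both MV4-11 groups and SLC6A9 in MV4-11 AC220.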

Other observations

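Of the 58 rows of the 7 families 28 lay below the minimum total and were not followed, 9 of them at 0 counts in every library and 19 with at least 1 count. SLC6A16, an orphan carrier with 50 counts in all, had 11, 12 and 16 counts in MV4-11 AC220, against 5, 1 and 1 counts in MV4-11 DMSO, and 1 count over the OCI-AML3 AC220 libraries, against 3 over the OCI-AML3 DMSO libraries. SLC36A3 had 31 counts over the MV4-11 AC220 libraries, against 21 in MV4-11 DMSO, and 25 over the OCI-AML3 AC220 libraries, against 17 in OCI-AML3 DMSO. Both passed the filter on low counts, but they were chosen after their values were seen, so no test of them is given.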
